A study of Mus musculus with 56 samples.

Results

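Whole blood of C57BL/6 mice was profiled after injection of 90Sr, a bone-seeking beta emitter, and the comparison described here used the array slides on which control and irradiated samples lay side by side. An Agilent slide of this format carries 4 arrays. A slide was identified by the first portion of the scanner's array identifier, and of 14 slides in the series 4 held both groups. The slides belonged to days 7, 9, 25 and 30 after injection, 1 slide a day, each with 2 control and 2 irradiated arrays. These made up 16 of the 56 arrays of the series, with 8 control and 8 irradiated mice. Irradiated mice had received 200 kBq of 90Sr as the chloride, together with a tracer isotope of strontium, into the tail vein, and control mice had received the saline vehicle. All mice were about 10 to 12 weeks old on arrival, each array held the RNA of 1 mouse, and each day had control mice of its own. The other 32 arrays of these days lay on slides that held 1 group only, and the 8 arrays of day 4 were not used.

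On a slide with both groups, the arrays share the hybridization, the wash and the scan, so a difference between slides falls on both groups alike. Each of the 4 slides was read in 1 scan. On the slides with 1 group, treatment and slide cannot be told apart, and their scans within a day spanned up to 27 days, at day 30. The 4 slides with both groups each came from another day, so slide and day cannot be told apart either. The order of the groups was not balanced over the slides: the controls had the lower positions on 3 of the 4 slides. On each slide the controls and the irradiated arrays held opposite ends, so position and treatment cannot be told apart on a single slide.

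In adult mice the blood cells come from the bone marrow, which lies beside the mineral in which strontium is laid down. Of the blood cells, B cells are among the most sensitive to ionizing radiation and mature red cells, which have no nucleus, among the least. Blood RNA is a mixture of all these cells, and fewer cells of a type and less RNA per cell cannot be told apart in these data. Metallothioneins are small cysteine-rich proteins that bind zinc and copper and are induced by metals, glucocorticoids and oxidants. The gene Cdkn1a encodes p21, an inhibitor of the cell cycle that p53 induces after DNA damage.

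Levels of blood cell markers are given for the labeled tissue. On the 8 control arrays the mean level of the erythroid markers was between 7.97 and 9.05, that of the platelet markers between 7.82 and 9.14, that of the B cell markers between 5.11 and 5.46, that of the T cell markers between 4.53 and 5.14 and that of the neutrophil markers between 3.86 and 4.89. These levels, like all levels below, are log2 signal minus the median of the non-control spots of the same array. All these means lay above that median. So did the plasma cell list (2.70 to 3.11) and the eosinophil and basophil list (1.72 to 2.83). The genes had passed a detection filter and the median is over all non-control spots, so this cannot test the identity of the tissue.

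Before any scaling, the irradiated arrays were dimmer than the controls of their slide. The median over the non-control spots, on the log2 scale, was between 4.01 and 4.73 on the control arrays (median 4.31) and between 3.38 and 4.22 on the irradiated arrays (median 3.53). It fell by 0.60 from control to irradiated arrays over the 4 slides, and by 0.74, 0.69, 0.30 and 0.67 on the slides of days 7, 9, 25 and 30. The upper quartile of the log2 signal fell by 0.97, more than the median did. Both differences had p = 0.00154 (adjusted p = 0.00231) in a two-sided exact permutation test within slides, the smallest p that the 1296 arrangements can give. Control arrays had between 17809 and 24313 spots well above background and irradiated arrays between 16065 and 19590, so that the number fell by 3055 spots (exact permutation p = 0.00309). Since the median and the upper quartile moved by different amounts, the scaling decides where the bulk of the genes is placed, and results are given below with both.

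**Figure D1:**
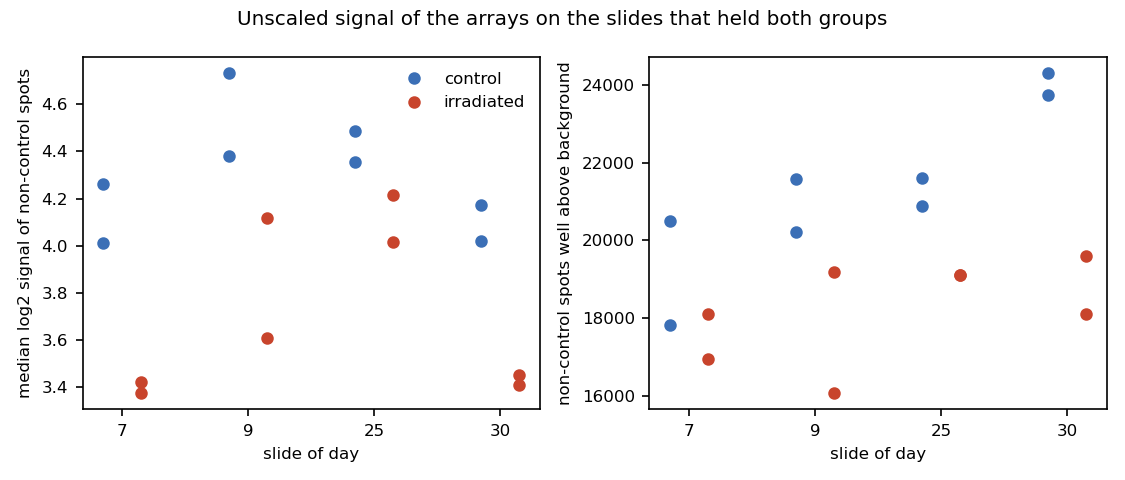
Median log2 signal of an array's non-control spots before scaling (left) and number of those spots well above background (right), 1 point per array, for the 4 slides named by their day. On the left the controls lie between 4.01 and 4.73 and the irradiated arrays between 3.38 and 4.22, with the smallest difference on the slide of day 25.

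With each array centered on its median and the slide as a fixed block, 2836 of 18795 genes were called, which is 15.1% (unadjusted p below 0.001 and a change of at least 2-fold, limma). Of these, 310 genes (1.65%) were higher and 2526 (13.4%) were lower in the irradiated mice, so that 89.1% of the calls were lower. The largest Benjamini-Hochberg adjusted p among them was 0.00339 (limma). The genes called higher had a median log2 change of 1.13 and those called lower one of -1.22, against a median of 0.00 over all genes tested and a median standard error of 0.20. On all 4 slides 2832 of the called genes had the same sign. Of the 310 genes called higher, 178 had every irradiated array above every control array on each of the 4 slides, where 5.51% of all genes tested did. Of the 2526 genes called lower, 2296 had every irradiated array below every control array on each slide, where 21.2% of all genes did. The called genes were chosen by their changes on these same arrays, so these counts of sign and overlap are a description.

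The direction of the calls depended on the scaling. With arrays scaled on the 75th percentile of the same spots, all genes were shifted up by 0.37 on the log2 scale, and 2406 genes (12.8%) were called higher and 699 (3.72%) lower, so that 22.5% of the calls were lower. Quantile normalization gave 699 higher and 1228 lower calls, and scaling on a reference array 52 and 3967. Genes called lower under the median were called higher under none of the 75th percentile, detected-probe median, quantile and reference array scalings. Under all 5 scalings 49 genes (0.261%) were called higher and 689 (3.67%) lower. Falls of B cell and antigen presentation genes and rises of the metallothioneins and Cdkn1a were among these calls, as given gene by gene below.

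**Figure D2:**
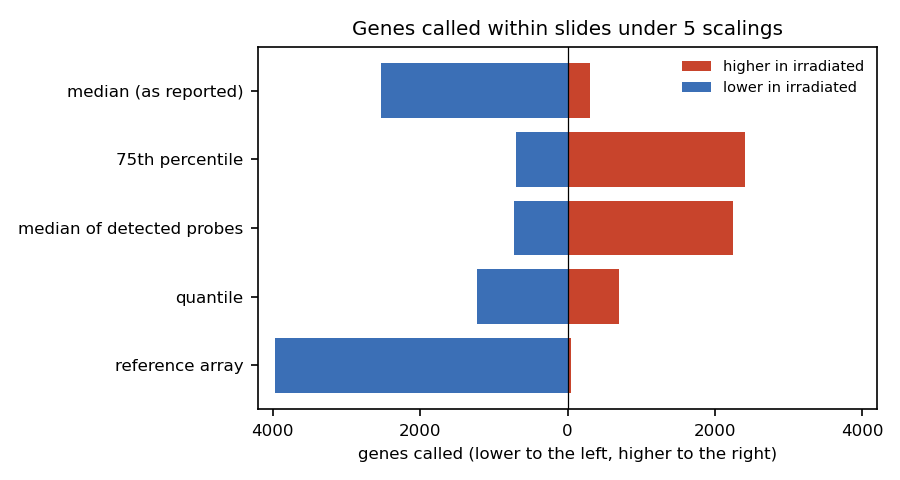
Genes called within slides under each of 5 scalings of the arrays, with genes lower in the irradiated mice drawn to the left and higher to the right of 0. The same 16 arrays gave 310 higher and 2526 lower calls with the median, but 2406 higher and 699 lower calls with the 75th percentile.

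Markers of B cells were lower in the irradiated mice. Of 20 B cell markers tested, 18 were called lower, with a median log2 change of -1.87, and the irradiated arrays lay below the controls of their slide for 18 of 20 on all 4 slides. The median was -2.20, -1.83, -1.32 and -2.21 on the slides of days 7, 9, 25 and 30, and -1.51 with 75th percentile scaling, under which 17 of 20 were called lower. Of all genes tested, 13.4% were called lower, 21.2% lay below the controls on all 4 slides and 3.72% were called lower with the 75th percentile. The list was lower under every scaling and background correction tried. Its mean level was between 5.11 and 5.46 on the control arrays and between 2.81 and 4.47 on the irradiated arrays, so the groups did not overlap.

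Cd79b, which encodes the Ig-beta chain of the B cell receptor, had levels between 9.16 and 9.46 on the control arrays (median 9.29) and between 6.40 and 8.23 on the irradiated arrays (median 7.33). The lowest control array thus lay above the highest irradiated array. The log2 change was -2.09 ± 0.22 (SE), a 4.27-fold fall (adjusted p = 1.65e-05, limma), and -2.26, -2.14, -1.56 and -2.41 on the 4 slides in order of day. Its partner chain Cd79a fell by 2.00 on the log2 scale, and Ms4a1, which encodes the surface marker CD20, by 2.07. The receptor-proximal kinase gene Blk changed by -2.51. Blk had levels between 1.33 and 2.16 on control arrays and between -1.55 and 0.45 on irradiated arrays, and was well above background on 8 control but only 1 irradiated array. Ebf1, a transcription factor that specifies the B lineage, had levels between 3.01 and 3.60 on control arrays and between -1.32 and 2.39 on irradiated arrays (log2 change -2.57 ± 0.31, SE). Other B cell genes among the largest falls were Fcrla and Fcrl1, Fc receptor-like genes (-2.14 and -2.17), Fcer2a, the low-affinity IgE receptor (-2.14), Tnfrsf13c, the receptor of the survival factor BAFF (-2.13), and Faim3, the IgM Fc receptor (-2.13). Pax5, the factor that maintains B cell identity, had the smallest change of the list, with levels between 0.26 and 1.52 on control and between 0.48 and 2.02 on irradiated arrays (log2 change 0.23 ± 0.20, SE, adjusted p = 0.321, limma). The sign of its estimate turned under 1 background correction.

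Genes of the B cell receptor pathway and of MHC class II followed the same pattern. Of 28 tested genes of B cell receptor signaling, 18 were called lower and 0 higher (median -1.19, 11 lower with 75th percentile scaling), among them Cd72, an inhibitory co-receptor (-1.87), and Bank1, an adaptor (-1.87). Cd72 and Bank1 are also in the B cell list, so the lists overlap. Of 14 genes of MHC class II presentation, 11 were called lower, and the same number under all 5 scalings (median -1.84). Of all genes tested, 13.4% were called lower, 3.72% with the 75th percentile and 3.67% under all 5 scalings. Cd74, the invariant chain that guides class II molecules, had levels between 8.44 and 8.76 on control arrays (median 8.61) and between 5.90 and 7.42 on irradiated arrays (median 6.78). It fell by 2.00 ± 0.20 (SE) on the log2 scale (adjusted p = 1.28e-05, limma), with no overlap between the groups. H2-Aa and H2-Ab1, the chains of the I-A molecule, changed by -1.94 and -1.93, and H2-DMb2, a chain of the peptide-loading molecule, by -2.11. Of 21 genes listed for the immunoglobulin loci, only 3 had a probe that passed the filter: Iglv1, Vpreb3 and Igj. Only Iglv1 is itself a segment of such a locus, and Vpreb3 is also in the B cell list. Iglv1 and Vpreb3 were called lower and Igj was not (-0.31, adjusted p = 0.303, limma). Iglv1, a lambda light chain variable segment, was between 6.49 and 7.00 on control arrays and between 3.76 and 5.55 on irradiated arrays (log2 change -2.05 ± 0.23, SE). Vpreb3, a B lineage chaperone of the receptor, changed by -1.81.

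**Figure D3:**
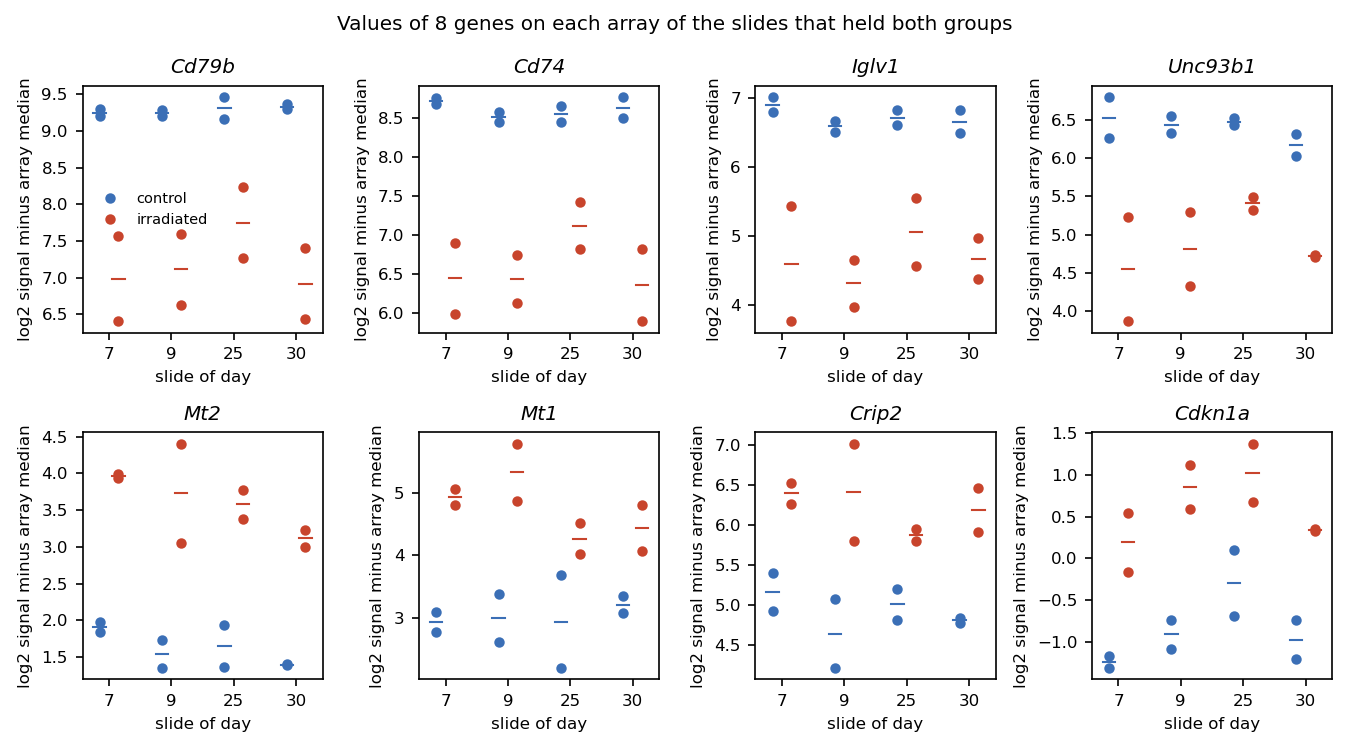
Levels of 8 genes (log2 signal minus array median) on each of the 16 arrays, by slide, with 2 control and 2 irradiated arrays a slide and a line at their mean. Cd79b, Cd74, Iglv1 and Unc93b1 were lower and Mt2, Mt1, Crip2 and Cdkn1a higher on all irradiated arrays than on the controls of the same slide.

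The largest falls outside these lists were of genes of varied function. Il4i1, a secreted amino acid oxidase, had levels between 5.22 and 5.88 on control arrays (median 5.53) and between 2.14 and 4.46 on irradiated arrays (median 3.30), and changed by -2.24 ± 0.29 (SE). This was the largest fall among genes well above background on all 16 arrays and without overlap on any slide. Chst3, a chondroitin sulfotransferase, changed by -2.18, Cd55, which protects cells from complement, by -2.17, and Xkrx by -2.02. Without the condition on background, B3gnt8, a glycosyltransferase gene, changed by -2.63 and Cobll1 by -2.46. Each was well above background on 3 of 8 irradiated arrays. H2-Eb2, a class II beta chain gene, had levels between 1.78 and 2.74 on control and between -1.87 and 1.70 on irradiated arrays, where 1 of 8 was well above background.

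Other white cell lists had fewer calls. Plasma cell genes were called lower in 3 of 9 cases (median -0.96), and these were Irf4, Pou2af1 and Mzb1, which B cells also express (-1.74, -1.57 and -1.48). For T cells, 2 of 24 markers were called lower (median -0.65): Cd2, an adhesion receptor (-1.37), and Ccr7, a homing receptor (-1.03), of which Ccr7 lost its call in 4 of the 16 fits that left out 1 array. Of the 24, 20 had an estimate below 0, while Cd8b1 stood at 0.50 (adjusted p = 0.0135, limma) and Cd4 at 0.01. For NK cells, 1 of 17 markers was called lower (median -0.72), the activating receptor gene Klrk1, whose call was lost in 5 of the 16 fits. Klrk1 was well above background on 8 control and 0 irradiated arrays and was at least 1.08-fold lower (adjusted p = 0.00168, limma). Monocyte markers were called lower in 8 of 19 cases (median -0.71) and in 5 under all 5 scalings. Of the 19, 17 had an estimate below 0, while Csf1r stood at 0.21 and Cd14 at 0.90 (adjusted p = 0.0306, limma). Cd14 was dim, well above background on 2 control arrays and 1 irradiated array. The chemokine receptor gene Ccr2 had levels between 3.70 and 4.67 on control and between 0.29 and 3.2 on irradiated arrays (log2 change -2.06 ± 0.31, SE). The fractalkine receptor gene Cx3cr1 changed by -1.70, the factor Irf8 by -1.67 and the lysosomal protease gene Ctss by -1.51. Dendritic cell markers were called lower in 4 of 13 cases (median -0.57), with Cd209a at -2.01, Cd83 at -1.66, Tcf4 at -1.42 and Bst2 at -1.11. Of the 13, 10 had an estimate below 0, while Pacsin1 stood at 0.27 and Siglech at 0.18. Zbtb46 stood at 0.80 (adjusted p = 0.00886, limma) and was called higher with the 75th percentile. Markers of eosinophils and basophils were called lower in 4 of 12 cases (median -0.70). Of these, Fcer1a, a chain of the IgE receptor, was well above background on 8 control and 0 irradiated arrays and was at least 1.87-fold lower (adjusted p = 3.31e-05, limma). Cpa3, a mast cell and basophil protease gene, changed by -1.39, the IL-5 receptor gene Il5ra by -1.31 and the eotaxin receptor gene Ccr3 by -1.29. All these list medians stayed below 0 under all scalings. Each is to be read against 13.4% of all genes called lower.

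Neutrophil, platelet and red cell markers behaved differently. Of 25 neutrophil markers 1 was called, Cebpe, a granulocyte factor (-1.34), and the list median of -0.01 rose to 0.36 with 75th percentile scaling. No platelet marker of 21 was called in either direction (median 0.07, 0.44 with the 75th percentile and -0.15 with the reference array), and at an unadjusted p below 0.05 there were 0 as well (limma). No erythroid marker of 31 was called, but 25 of 31 had an adjusted p below 0.05 and were higher (limma), against 24.7% of all genes, while 32.7% of all genes and 0 erythroid markers were lower at that threshold. The erythroid median was 0.67 under the median scaling, 1.04 with the 75th percentile, under which 18 of 31 were called higher, and above 0 under each other scaling. Estimates of the 31 markers ran from 0.10 to 0.96. All are relative to the array, whose median fell by 0.60 and upper quartile by 0.97 before scaling. The list medians of 0.67 and 1.04 are near the sizes of those falls, so they do not show a rise of the unscaled signal. The list includes globin genes such as Hbb-b1, whose transcripts had been reduced before labeling. Erythroid genes named here were chosen after their values were seen. Slc4a1, the anion exchanger of the red cell membrane, had levels between 10.59 and 11.71 on control arrays and between 11.31 and 12.56 on irradiated arrays, which overlapped, and its estimate was 0.76 ± 0.19 (SE). The heme synthesis gene Alas2 stood at 0.61 (-0.03 with quantile normalization) and the erythroid factor Klf1 at 0.64. The mean level of the erythroid list was between 7.97 and 9.05 on the control and between 8.79 and 9.53 on the irradiated arrays. The share of this list in the changes of other genes was not tested.

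**Figure D4:**
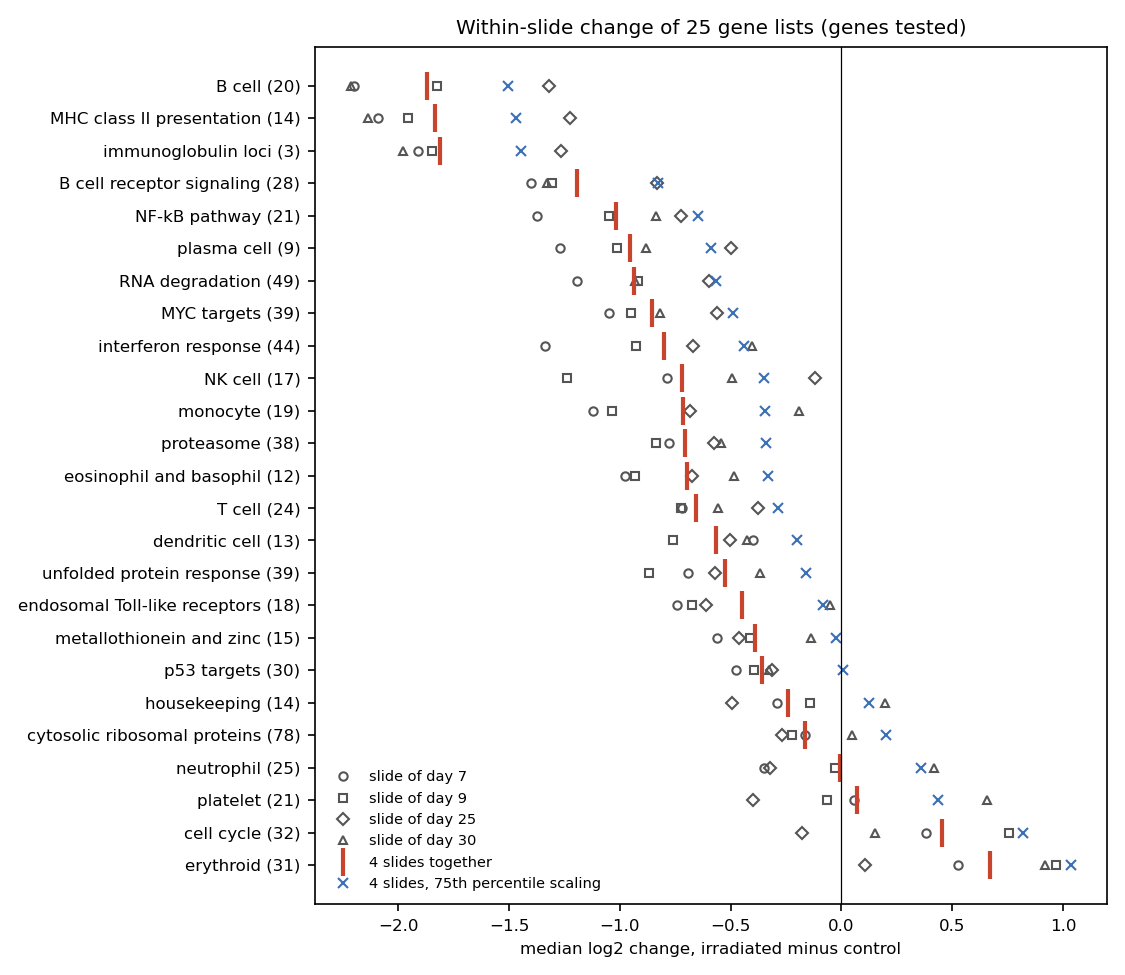
Median log2 change (irradiated minus control) of 25 gene lists on each of the 4 slides (open symbols), over the 4 slides (red bars) and over the 4 slides with 75th percentile scaling (blue crosses), with the number of genes tested in brackets. The B cell list has its median at -1.87 and the erythroid list at 0.67, and the slide of day 25 has the B cell median nearest to 0.

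The metallothionein genes Mt1 and Mt2 were higher in the irradiated mice. Mt2 had levels between 1.35 and 1.98 on the control arrays (median 1.57) and between 3.0 and 4.40 on the irradiated arrays (median 3.58), with no overlap. Its log2 change was 1.97 ± 0.18 (SE), a 3.92-fold rise (adjusted p = 1.17e-05, limma), and 2.06, 2.18, 1.92 and 1.72 on the slides of days 7, 9, 25 and 30. Mt1 had levels between 2.19 and 3.68 on control arrays (median 3.08) and between 4.02 and 5.79 on irradiated arrays (median 4.81). It rose by 1.73 ± 0.24 (SE) on the log2 scale (adjusted p = 5.6e-05, limma). Both were called higher under all 5 scalings, with 2.34 and 2.09 under the 75th percentile. With normexp, another background correction, fitted without spots of high local background and chosen after seeing the data, under which 1 gene in all was called higher, Mt2 stood at 0.85 and Mt1 at 1.02. Of the other members of the family, Mt3 stood at 0.17 (adjusted p = 0.392, limma) and Mt4 at 0.70 (adjusted p = 0.0301, limma), and neither was called. Of the 15 tested genes of the metallothionein and zinc list these were the 2 called higher, and 3 were called lower, among them the zinc transporter genes Slc30a4 (-1.94) and Slc30a5 (-1.46).

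The promoters of this pair are shown because the genes lie next to each other and rose together. RefSeq sequences of build GRCm38.p6 are given from 250 bases before to 30 after the start of each gene, both on the + strand, Mt1 at chr8:94178839-94179118 and Mt2 at chr8:94172368-94172647. Capitals mark the 7-letter metal response element cores TGCACNC and TGCGCNC on either strand.
Mt1: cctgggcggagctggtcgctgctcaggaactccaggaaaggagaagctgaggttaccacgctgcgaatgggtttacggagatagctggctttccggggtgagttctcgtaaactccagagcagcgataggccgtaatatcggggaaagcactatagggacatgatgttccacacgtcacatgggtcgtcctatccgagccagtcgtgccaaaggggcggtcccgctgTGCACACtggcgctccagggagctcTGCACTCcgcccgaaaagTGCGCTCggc
Mt2: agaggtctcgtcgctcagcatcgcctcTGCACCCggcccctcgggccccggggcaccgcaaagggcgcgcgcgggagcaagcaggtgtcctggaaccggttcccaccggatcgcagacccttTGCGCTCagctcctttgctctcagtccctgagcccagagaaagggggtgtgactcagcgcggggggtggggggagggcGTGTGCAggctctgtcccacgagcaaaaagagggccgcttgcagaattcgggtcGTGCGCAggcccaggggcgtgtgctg
The Mt1 window held 3 matches, all on the strand of the gene, and the Mt2 window 4, of which 2 were on the opposite strand. No matches overlapped. Of 32851 promoter windows of this length, 24.1% held at least 1 match, 1.73% at least 3 and 0.405% at least 4. A match is a run of letters and was not tested as a site.

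Crip2, a LIM domain protein gene, had levels between 4.22 and 5.39 on control arrays (median 4.88) and between 5.80 and 7.01 on irradiated arrays (median 6.10). The groups did not overlap, and the log2 change was 1.31 ± 0.20 (SE) and was called under all 5 scalings. Sh3pxd2a, an invadopodium scaffold gene, had levels between 0.23 and 2.20 on control and between 1.86 and 5.25 on irradiated arrays (log2 change 1.42 ± 0.31, SE). The other large rises among genes well above background on all arrays were of Obox1, Speer1-ps1, Brdt, Olfr704, Ntf5, Olfr406, D830030K20Rik and C430002N11Rik, with log2 changes from 1.13 to 1.26. Obox1 and Brdt are germ line genes, and Olfr704 and Olfr406 belong to the olfactory receptor family. For Obox1, Speer1-ps1, Brdt, Olfr704, Ntf5 and Olfr406, 1 array, irradiated replicate 1 of day 9, stood above all others, and without it the changes were 1.0, 0.97, 0.92, 0.93, 0.89 and 0.86, of which Obox1 alone stayed past 2-fold. Speer1-ps1, Brdt, Olfr704, Ntf5 and Olfr406 lost their call in 10, 10, 9, 12 and 11 of the 16 fits that left out 1 array. Among genes of any brightness, Mmel1, a membrane peptidase gene, rose by 1.56 and Pde6b, a phosphodiesterase gene, by 1.51. Dsc3, a desmosomal cadherin gene, was called higher (adjusted p = 0.000516, limma). It was well above background on 0 control and 1 irradiated array, so no size is given for its rise.

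Genes of the p53 response were called in both directions. Cdkn1a had levels between -1.32 and 0.10 on control arrays (median -0.91) and between -0.17 and 1.38 on irradiated arrays (median 0.57). On each slide both irradiated arrays lay above both controls, although the groups overlapped across slides. It rose by 1.46 ± 0.18 (SE), or 2.75-fold (adjusted p = 2.71e-05, limma), with 1.43, 1.77, 1.32 and 1.32 on the 4 slides, and was called under all 5 scalings, but stood at 0.31 with the same normexp correction. Its probe was dim, well above background on 1 of 8 control and 5 of 8 irradiated arrays. Of 30 tested p53 target genes 2 were called higher, Cdkn1a and the spindle gene Psrc1 (1.14), and 4 lower: the apoptosome gene Apaf1 (-1.24), the BH3-only gene Pmaip1 (-1.07), 9630033F20Rik, also known as Tigar, and Rrm2b, a ribonucleotide reductase subunit. The lower calls were 13.3% of the list, where 13.4% of all genes were called lower, and the higher calls 6.7%, where 1.65% of all genes were called higher. Apaf1 was well above background on 8 control but only 1 irradiated array. Neither 9630033F20Rik nor Rrm2b was well above background on any irradiated array. They were at least 1.51-fold (adjusted p = 4.89e-05, limma) and at least 1.06-fold lower (adjusted p = 0.000235, limma), and Rrm2b had an estimate of -0.23 on the single-group slides. The median of the list was -0.36, and 0.01 with 75th percentile scaling. Other p53 targets measured by PCR in the study did not pass: Ccng1 stood at -0.01 ± 0.15 (SE), Ddb2, a DNA repair gene, at -0.35 ± 0.28 and Bbc3, a pro-apoptotic gene, at -0.12 ± 0.20, and all 3 were above 0 with the 75th percentile. Actb, cytoskeletal actin and a reference gene, had an estimate of 0.03 ± 0.16 (SE), with levels between 12.91 and 13.94 on control and between 12.89 and 14.01 on irradiated arrays, and -0.47 with quantile normalization.

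For the remaining pathway lists, counts of lower calls are to be read against 13.4% of all genes, and those with the 75th percentile against 3.72%. For the NF-kB pathway it was 10 of 21 genes (median -1.02, 5 with the 75th percentile), with the receptor gene Cd40 at -2.04, the kinase gene Ikbkb at -1.52 and the inhibitor gene Nfkbie at -1.45. For RNA degradation it was 20 of 49 (median -0.93), but 2 with the 75th percentile, among them the exosome subunit genes Exosc1 and Exosc4 (-1.35 for Exosc4), the exonuclease gene Xrn2 (-1.39) and the deadenylase gene Parn (-1.32). Exosc1 was well above background on 7 control and 0 irradiated arrays and was at least 1.36-fold lower (adjusted p = 2.01e-05, limma). Interferon response genes were called lower in 16 of 44 cases (median -0.80) and in 3 with the 75th percentile. Stat2, which carries the type I interferon signal, had levels between 3.65 and 4.26 on control and between 1.58 and 3.21 on irradiated arrays (log2 change -1.48 ± 0.17, SE), Gbp3 changed by -1.39 and Ifi27l2a by -1.37. Oas2 changed by -1.33, and its call was lost in 13 of the 16 fits that left out 1 array. MYC targets were called lower in 12 of 39 cases (median -0.86, 1 with the 75th percentile), with the ribosome assembly gene Rrs1 at -1.5, the RNA polymerase I subunit gene Polr1b at -1.25 and both Pa2g4 and Phb2 at -1.13. Genes of the endosomal Toll-like receptors were called lower in 6 of 18 cases (median -0.45) and in 4 with the 75th percentile. Unc93b1, which carries these receptors to endosomes, was between 6.04 and 6.80 on control and between 3.87 and 5.49 on irradiated arrays and changed by -1.53 ± 0.21 (SE). Its neighbors in this pathway, the factor Irf5 and the transporter gene Slc15a4, changed by -1.66 and -1.61.

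Protein turnover genes had shares of lower calls nearer to the 13.4% of all genes. Proteasome genes were called lower in 7 of 38 cases, or 18.4% (median -0.71), led by the immunoproteasome subunit genes Psmb8, Psmb10 and Psmb9 (-1.29, -1.23 and -1.09) and followed by the core subunit gene Psma4 (-1.08), and in 0 with the 75th percentile. The unfolded protein response list had 3 of 39, or 7.7%, called lower (median -0.53): the ubiquitin ligase gene Syvn1 (-1.53), the disulfide isomerase gene Pdia6 (-1.32) and the chaperone gene Hsp90b1 (-1.13). Of 78 cytosolic ribosomal protein genes 0 were called, and their median was -0.16, turning to 0.20 with the 75th percentile. Cell cycle genes had 1 call in each direction among 32 (median 0.45): the cyclin gene Ccnb2 rose by 1.09 and the replication licensing gene Cdt1 fell by 1.1, and 7 were called higher with the 75th percentile. Of 14 housekeeping genes 2, or 14.3%, were called lower, Tbp (-1.56) and Hprt (-1.09), and their median was -0.24, but 0.12 with the 75th percentile.

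The size of the effect varied among the slides without a gene that passed the test of that variation. By itself the slide of day 7 gave 894 calls in a fit of all 4 slides, of which 65 (0.346% of the genes tested) were higher and 829 (4.41%) lower. The slide of day 9 gave 210 higher (1.12%) and 710 lower (3.78%), that of day 25 44 (0.234%) and 58 (0.309%), and that of day 30 53 (0.282%) and 354 (1.88%). Genes called lower over the 4 slides had median log2 changes of -1.45, -1.43, -0.87 and -1.21 on the slides in order of day, and genes called higher 1.05, 1.49, 1.11 and 1.03. The slide of day 25 thus had the smallest falls, as it had the smallest drop in median signal. In the F test of slide by treatment, 0 of 18795 genes had an adjusted p below 0.05 (limma, smallest adjusted p = 0.365), and 834 genes (4.44%) had an unadjusted p below 0.05. Gapt, an adaptor gene among the 6 of smallest p in that test, changed by -3.09, -2.78, -0.56 and -1.31.

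The question the mixed slides address is whether the effect also appears where slide and treatment are separate, and it was compared with the 32 arrays on single-group slides of the same days, which share no array with these 16. Across the 18795 genes, which are not independent replicates, the log2 changes of both sets had Pearson r = 0.94 and Spearman rho = 0.93. All 2836 genes called within slides had the same sign on the single-group slides, and 2501 were called there too, which is 88.2% of the within-slide calls and 54.9% of the 4557 calls on single-group slides. The single-group slides had 1064 genes called higher (5.66%) and 3493 lower (18.6%). Of their 4557 calls, 4554 had the same sign within slides. The 2056 genes called on single-group slides only had a median size of 0.84 within slides and 1.13 on single-group slides, and 1737 of them had an adjusted p below 0.05 within slides with the same sign (limma).

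The changes were somewhat smaller within slides for the falls. Genes called lower within slides had a median log2 change of -1.22 there and -1.42 on single-group slides, and genes called higher 1.13 and 0.98. These genes were chosen by their values within slides, so the medians are a description. Over all genes the median size of the log2 change was 0.57 within slides and 0.67 on single-group slides. Cd79b changed by -2.09 within slides and -2.71 on single-group slides, Mt2 by 1.97 and 2.43, Cd74 by -2.00 and -2.61 and Cdkn1a by 1.46 and 1.22. In the test of the difference between both kinds of slide, 2 of 18795 genes (0.0106%) had an adjusted p below 0.05 (limma), and 1245 (6.62%) had an unadjusted p below 0.05. Both were unnamed transcripts well above background on all 16 arrays. The probe A_55_P1962586 on chromosome 16 changed by 0.58 within slides and -0.53 on single-group slides (adjusted p of the difference = 0.0056, limma), and the transcript D030063E12 by 0.38 and -0.58 (adjusted p = 0.0126, limma).

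**Figure D5:**
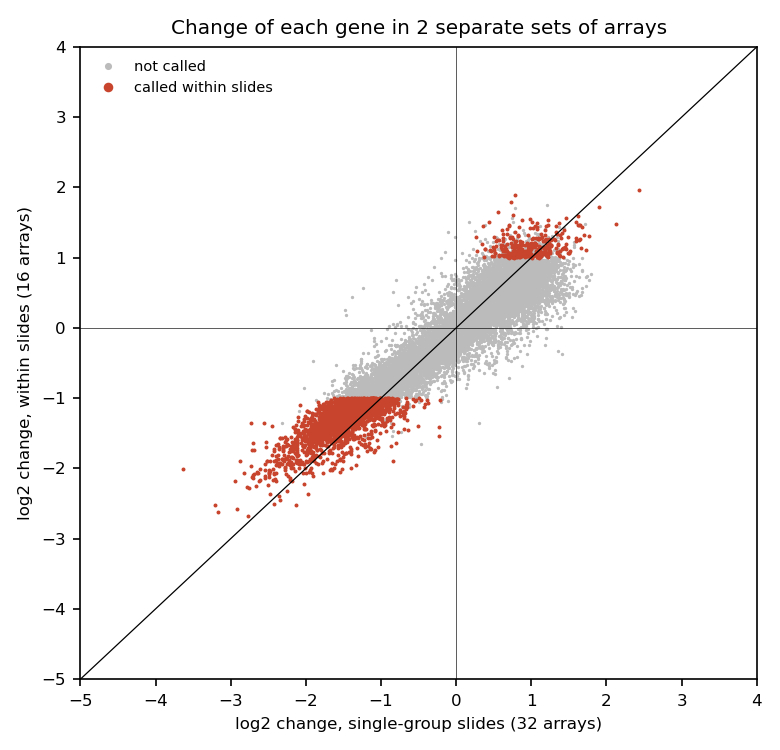
Log2 change (irradiated minus control) of each of 18795 genes on the 32 arrays of single-group slides (horizontal axis) and on the 16 arrays of slides with both groups (vertical axis), with the line of equal change. The 2836 genes called within slides (red) have the same sign on both axes, and 2008 of the 2526 genes called lower lie above the line, nearer to 0 within slides.

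Slides of 1 day also differed at the same treatment. Control arrays on the mixed slide and on the single-group slides of the same day differed at an adjusted p below 0.05 in 602 genes (3.2%, limma), and irradiated arrays in 745 (3.96%), with 104 in both. Of the 602, 25 were among the 2836 genes called within slides, and of the 745, 65 were, where 15.1% of all genes tested were called. The median size of that slide difference was 0.15, 0.33, 0.16 and 0.19 for the controls of days 7, 9, 25 and 30 and 0.26, 0.30, 0.43 and 0.38 for the irradiated mice. At days 7, 25 and 30 the slide differences of the irradiated mice were thus above those of the controls, and a difference between mice and one between slides cannot be told apart here. Arrays of the same group on a slide correlated at r between 0.956 and 0.988 across genes.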

How the data were processed

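RNA from whole blood was hybridized by the authors to one-color Agilent arrays after globin reduction. The authors deposited a linear intensity for each spot, the processed signal, background-corrected by Feature Extraction (10.7 in the submitters' processing notes, 11.5.1.1 in the headers) and not scaled between arrays, with flags for background, uniformity and saturation. Their own normalized log2 values, deposited as a table, served as an alternative. Groups, days and replicate numbers come from the labels.

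Control spots were left out, log2 signals were centered on each array's median of 43020 non-control spots, probes that 25% or more of all arrays flagged as not above background or as non-uniform were removed (23318 probes remained), and a gene took its probe of highest mean, giving 18795 genes. 2 genes without a value in some group of a slide were dropped, and 51 genes, 8 of them called, had a missing value on some array. Genes are named as in the array files; 13384 had an accession in the reference table, with another symbol there for 961. Probe positions are on mm9 and promoters on GRCm38.p6, and they were not combined.

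Models were fitted in R 4.3.3 with limma 3.58.1 (lmFit, eBayes) on the 16 arrays with slide as a fixed block; differences between slides and from single-group slides were fitted over slide-by-treatment cells. A call is an unadjusted p below 0.001 and 2-fold or more, as in the study's methods; adjusted p are Benjamini-Hochberg over all genes. For a probe that no array of a group had well above background, a bound replaces the fold change: the brighter group's mean less, for each array of the dimmer group, the higher of its lowest well-detected signal and the probe's own signal. Dsc3 was given no bound, because its brighter group was dim as well. Array values were compared by two-sided exact permutation within slides. Some other named falls also rest on dim irradiated signal, so their sizes are less certain. Fcrl1, Cpa3, Tbp and Gapt were well above background on 2 of 8 irradiated arrays, and Polr1b, Parn and Slc30a4 on 3. Arrays are single mice, and their number limits the precision. The steps were tested on simulated data. The named genes are the largest changes without overlap on any slide, the largest called members of the lists, and genes the study measured by PCR. For some lists the smallest change or other members not called are named too. The members, lists and rules were chosen with earlier results of these data known. Alternatives were other scalings, background corrections, filters, thresholds, blocks, array weights, and each array or slide left out; an added normexp fit, without 210 spots of high local background, and a term for position on the slide were chosen after seeing the data.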

Additional observations from a re-analysis of the deposited data

Results flagged for a closer look

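Of 216 sets of 8 arrays checked, for most of the genes the text names and for the array measures, 18 had a highest or lowest array set apart from the rest by Dixon's criterion, of which chance flags about 1 in 20 sets. In 8 of the 18 cases the array was irradiated replicate 1 of day 9. On it Obox1 had a level of 6.99, Speer1-ps1 one of 8.88, Brdt 9.11, Olfr704 7.05, Ntf5 6.48, Olfr406 6.95 and Pde6b 3.48, each the highest of the irradiated arrays, and Pa2g4 one of -0.70, the lowest. The next irradiated array had 5.30 for Obox1, 4.73 for Olfr704 and 1.19 for Pde6b.

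The other irradiated arrays set apart were those with 3.27 for C430002N11Rik (replicate 2 of day 9), 2.27 for Dsc3 (replicate 1 of day 25), 0.23 for Oas2 (replicate 6 of day 7), -1.90 for Rrm2b (replicate 2 of day 25) and 3.72 for Ddb2 (replicate 2 of day 30). Among the controls, replicate 5 of day 25 had the highest level of Rrm2b, 1.93, and of Cdkn1a, 0.10. Klrk1 stood at 2.18 on control replicate 2 of day 7, Polr1b at 2.65 on control replicate 1 of day 7 and H2-Aa at 6.49, the lowest, on control replicate 6 of day 30.

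For 2 unnamed transcripts the effect differed between both kinds of slide by the test of that difference: by 1.11 on the log2 scale for A_55_P1962586 and by 0.96 for D030063E12, within slides minus single-group slides.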

How the results depend on the processing

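Within-slide calls numbered 2836. Settings that moved this number by over 1.5 times were the filter on spots well above background (1817 of 12554 genes), an adjusted p below 0.05 with no fold (10783), the 32 arrays of single-group slides only (4557), normexp with an offset of 50 (0), normexp without spots of high local background (1485, of which 1 higher), and the slides of days 7, 9, 25 and 30 each by itself, 2 against 2 (310, 447, 35 and 603). Why normexp on all spots gave 0 calls was not tested. Leaving out 1 array gave between 2107 and 3399 calls and leaving out 1 slide between 2228 and 3222. The number stayed within 1.5 times under the other scalings, the authors' processed values (3187 of 14162) and the remaining filters. It did so too with no slide block (2655), array weights (2383) and a term for position on the slide (3031). In that fit 1 gene differed between positions at an adjusted p below 0.05 (limma). The term rests on the slide of day 7 alone having the other order, so it cannot separate position from treatment. Only totals were compared here, and the genes called changed. Of the 2836 calls, 1009 were shared with the 75th percentile, 1042 with detected probes, 1368 with quantile normalization and 2578 with the reference array. With all 48 arrays of the 4 days there were 2901 calls with slide fixed, 3625 with slide as a random block (correlation of arrays on a slide 0.20) and 3953 with day as the block.

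No paired analysis was possible on the 16 arrays because the groups on 3 of the 4 slides share no replicate number; over the 48 arrays the replicate block within day gave 3940 calls. The deviations of same-numbered control and irradiated arrays correlated between -0.28 and 0.33 over 24 pairs, with 5 above 0.1, so the numbers were not taken as pairs.

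For the slide of day 30, 407 calls became 763 with the 75th percentile, 760 with the median of detected probes and 645 with quantile normalization, and for the slide of day 25, 102 became 59 with quantile normalization. The slide difference in controls, 602 genes, became 247 with the 75th percentile and 275 with detected probes. Quantile normalization gave 2 genes in the slide by treatment test, against 0, and 7 in the comparison with single-group slides, against 2; leaving out 1 array gave between 0 and 5 genes in the former, with 5 without control replicate 6 of day 9. The cause of these changes was not tested.

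Over the estimates of most of the named genes under all alternatives, 4026 kept their sign and side of the call, 411 lost the call, 8 gained it and 35 turned sign. Besides the genes given so far, leaving out 1 array ended the calls of Pa2g4, Hprt and Pmaip1 (3 arrays each), Ccnb2, Psmb9 and Psma4 (2 each) and Hsp90b1, C430002N11Rik and Psrc1 (1 each); the arrays were control replicates 5 and 6 and irradiated replicates 1 and 2 of day 9 and irradiated replicate 6 of day 7. Signs turned for 6 of these genes and for 2 of the lists whose median was larger than its standard deviation over the slides. Lists with medians within that spread turned too. Over the alternatives the neutrophil median ran from -0.35 to 0.36, the platelet median from -0.36 to 0.44 and the housekeeping median from -0.49 to 0.20. With the 75th percentile the medians of p53 targets and ribosomal proteins were 0.0090 and 0.20, and Ccng1, Ddb2 and Bbc3 stood at 0.36, 0.015 and 0.25; with detected probes the ribosomal median was 0.19 and the genes stood at 0.34, 0.00090 and 0.24. With quantile normalization Ccng1 was 0.34, Bbc3 0.16, Actb -0.47 and Alas2 -0.025, with the reference array Actb -0.19, and with the added normexp Pax5 -0.028 and Actb -0.44. Over 48 arrays Ccng1 was 0.038 with the random block, 0.054 with the day block and 0.054 with the replicate block, and 0.087 on single-group slides. Without the slides of days 7, 9 and 25 Ccng1 was 0.051, 0.0048 and 0.0071, and without those of days 7 and 30 Actb was -0.0014 and -0.046. Leaving out 1 array gave Ccng1 between -0.077 and 0.056, Bbc3 between -0.23 and 0.042 and Actb between -0.054 and 0.10. With 2 arrays per group on a slide, effects of single slides have a standard error near 0.39.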
